A study of Camelus dromedarius with 30 samples.

Results

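The 5 cortex libraries of rehydrated camels were compared with the 5 cortex libraries of dehydrated camels, to list the genes that rose and fell in 3 days of drinking. These 10 libraries were matched by the library name in the sample labels to columns of a count table that holds 30 libraries and 22444 genes in all. All 15376 genes that passed a filter on low counts were tested. The animals were male dromedaries aged 4 to 5 years, fed alfalfa hay. The dehydrated camels had food but no water for 20 days. The rehydrated camels went through the same 20 days without water and then drank freely for 3 days, so both groups share the deprivation and differ in the days of water at its end. The 5 cortex libraries of control camels, which always had water, are given beside them as a reference level. The 15 medulla libraries are set beside the cortex and used for a test of the difference between tissues. All 30 libraries were fitted together. Control and medulla libraries thus also entered the filter, the scaling and the estimate of spread behind the cortex calls. The sample labels give cortex and medulla libraries the same animal codes, but in the rehydrated group the numbers inside the library names differ between the tissues, so it is not certain that each such pair is 1 animal. Each library came from 1 animal and from ground tissue, so fewer cells of a type and less RNA per cell cannot be told apart in any of the values below.

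The kidney cortex holds the glomeruli and most of the proximal tubule, the segment that recovers most filtered solutes and burns fatty acids in its mitochondria to pay for it. The medulla and the collecting ducts that run through both zones concentrate the urine under vasopressin, which drives water through aquaporin channels. Sterol synthesis is run by enzymes whose genes are switched on together by the SREBP factors when cell cholesterol is low, and INSIG1 holds those factors back.

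The 10 libraries held 13458448 to 19785428 counted read pairs, and their totals did not separate the groups (exact permutation test, two-sided, p = 0.675). The mean RNA integrity numbers that the sample notes give were 7.7 (SD 0.2) for the dehydrated and 7.6 (SD 0.6) for the rehydrated cortex. Along the first principal component of the 15 cortex libraries, which held 34.3% of the variance, rehydration 2 and 3 lay at 56.3 and 66.0, and rehydration 1 and 4 lay at -46.6 and -69.4. The 5 dehydration libraries lay between them, at -27.1 to 26.7. The rehydrated camels thus differed among themselves more than the dehydrated camels did along this axis. The 576 genes at least 8 times higher in control medulla than in control cortex took 0.146% to 0.314% of the signal in the dehydration libraries and 0.0994% to 0.192% in the rehydration libraries (exact permutation test, two-sided, p = 0.0714), against 0.958% to 2.30% in the medulla. The 180 genes at least 8 times higher in control cortex took 2.43% to 3.89% in the dehydration and 3.32% to 5.07% in the rehydration libraries. Of the 576 medulla genes 9 fell (1.56%, against 1.24% of all genes tested) and 0 rose. Of the 180 cortex genes 18 rose (10%, against 1.07%) and 1 fell, and the part in these changes of how much of each zone a sample held was not tested.

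After 3 days with water 356 genes differed from the dehydrated cortex, which is 2.32% of the genes tested (edgeR's quasi-likelihood test, Benjamini-Hochberg adjusted p under 0.05). The 165 genes that rose (1.07% of those tested) had a median log2 fold change of 1.12, and the 191 that fell (1.24%) had a median of -0.75. In all 143 (40.2%) changed more than 2-fold, 92 (55.8%) of the genes that rose and 51 (26.7%) of those that fell. The values of the 5 rehydrated and the 5 dehydrated camels did not overlap for 246 (69.1%) of the 356, against 4.36% of all genes tested. The median over all tested genes was a log2 fold change of 0.03. Leaving out 1 library changed the count to between 147, without dehydration 2, and 423, without rehydration 5. It also fell by more than 1.5 times without dehydration 1 (213), dehydration 3 (177), dehydration 4 (225), rehydration 2 (233) or rehydration 3 (237). Of the 356 genes, 108 were called whichever of the 10 libraries was left out, 41 of them higher and 67 lower.

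**Figure D1:**
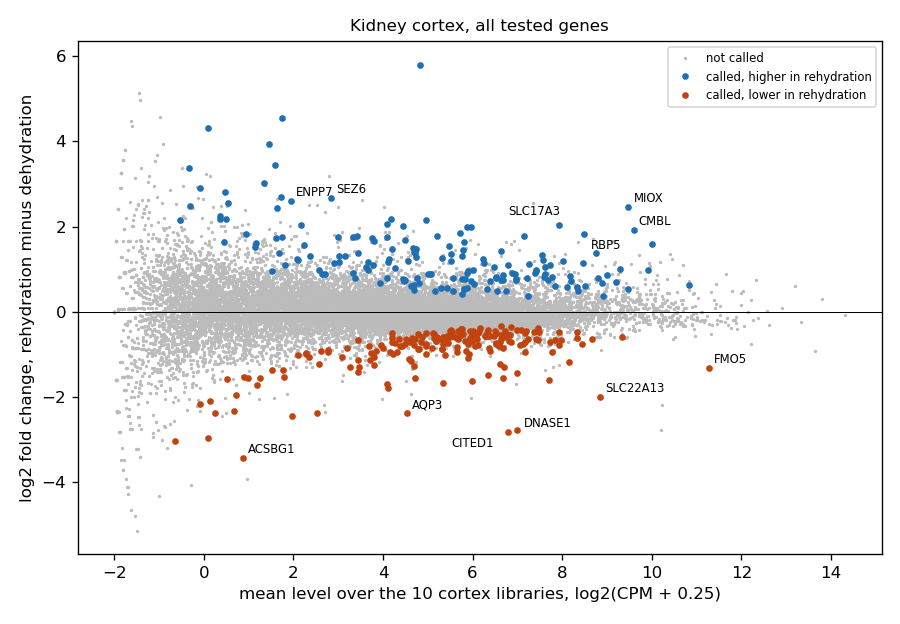
Each point is 1 of 15376 tested genes in the kidney cortex, with the mean level over the 5 dehydration and 5 rehydration libraries on the x axis as log2(CPM + 0.25) and the fitted log2 fold change on the y axis. Blue points are the 165 genes that rose and red points the 191 that fell. The median change of the blue points is 1.12 and that of the red points -0.75, and FMO5 is the red point furthest to the right.

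The largest rise had no gene symbol. ENSCDRG00005021452, on chromosome 20 from 22095402 to 22102387 (CamDro2, minus strand), stood at 0.839, 1.18, 0.907, 0.856 and 1.13 CPM (read pairs relative to the scaled library total, the unit of all levels here) in dehydration 1 to 5. In rehydration 1 to 5 it stood at 39.1, 98.7, 69.5, 18.4 and 50.3 CPM. It was close to silent in all dehydrated camels and present in all rehydrated ones, with a log2 fold change of 5.80 ± 0.95 (SE, edgeR adjusted p = 0.00122). In the controls it ranged from 2.89 to 87.2 CPM. ENSCDRG00005002124, on chromosome 11 from 78185 to 82353, went from a mean of 0.252 to 5.93 CPM, a log2 fold change of 4.54 ± 0.71 (SE, adjusted p = 0.000233). EDDM3B, which is named for an epididymal protein, held at most 3 counts in each dehydration library and a mean of 1.56 CPM in the rehydrated cortex. Set against a floor of 3 counts per library it was at least 6.98-fold higher, although rehydration 2 also held no count.

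Among named genes with levels above 1 CPM and no overlap between groups, the 12 that rose most were ZPLD1, SEZ6, ENPP7, MIOX, GPR35, TNC, SLC17A3, SLC8A1, CMBL, HSD11B1, RBP5 and CHST11. RBP5, a cellular carrier of retinol, had the smallest p of any named gene that rose. It stood at 105, 222, 108, 197 and 154 CPM in dehydration 1 to 5 and at 666, 607, 711, 382 and 427 CPM in rehydration 1 to 5. The lowest rehydrated camel lay above the highest dehydrated one, and the fitted rise was 3.55-fold (log2 1.83 ± 0.25 SE, edgeR adjusted p = 0.000233). SEZ6, on chromosome 16 from 21820679 to 21864045, is known from neurons. It rose from 1.92 ± 0.869 CPM to 11.9 ± 6.89 CPM (SD, n = 5 each), with rehydration 2 at 23.9 CPM and the other 4 at 7.10 to 10.9 CPM. ENPP7, an enzyme that splits sphingomyelin, rose 6.02-fold from 1.03 ± 0.407 CPM (SD, n = 5; adjusted p = 0.00383). GPR35, a receptor for tryptophan metabolites, stood at 4.08 to 7.86 CPM without water. After water it stood at 10.1, 47.4, 52.6, 9.99 and 25.3 CPM, so rehydration 2 and 3 were several times above rehydration 1 and 4. CMBL, a hydrolase that activates drug esters, was the most abundant of these genes that was called whichever library was left out. It stood at 234, 282, 349, 334 and 423 CPM in the dehydration libraries and at 1643, 945, 894, 1543 and 1066 CPM in the rehydration libraries. All 5 rehydrated values were well above the highest dehydrated one, and the rise was 3.75-fold (adjusted p = 0.00729). HSD11B1, which turns cortisone into the active hormone cortisol, stood at 12.8 to 27.7 CPM without water and 67.5 to 101 CPM after it, against 52.9 to 88.1 CPM in the controls.

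Of the other genes among these 12, all but CHST11 lost their calls in some fits without 1 library. MIOX, which starts the breakdown of inositol in the proximal tubule, had a mean of 219 ± 87.2 CPM without water and 1204 ± 353 CPM after it (SD, n = 5 each). The rise was 5.50-fold, with an edgeR adjusted p of 0.0343. Its call was kept in 3 of the 10 fits without 1 library, and without dehydration 3 the adjusted p was 0.102. ZPLD1 was called in 5 of the 10 such fits (adjusted p = 0.112 without rehydration 4), TNC in 6 (0.0867 without dehydration 2), SLC17A3 in 5 (0.0747 without dehydration 3) and SLC8A1 in 8 (0.0648 without rehydration 4). TNC, the matrix protein tenascin C, still went from 2.09 to 9.59 CPM in the dehydrated to 21.1 to 34.2 CPM in the rehydrated camels with no overlap. CHST11, which adds sulphate to chondroitin, rose 3.52-fold from 0.745 ± 0.237 CPM (SD, n = 5; adjusted p = 0.00239).

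**Figure D2:**
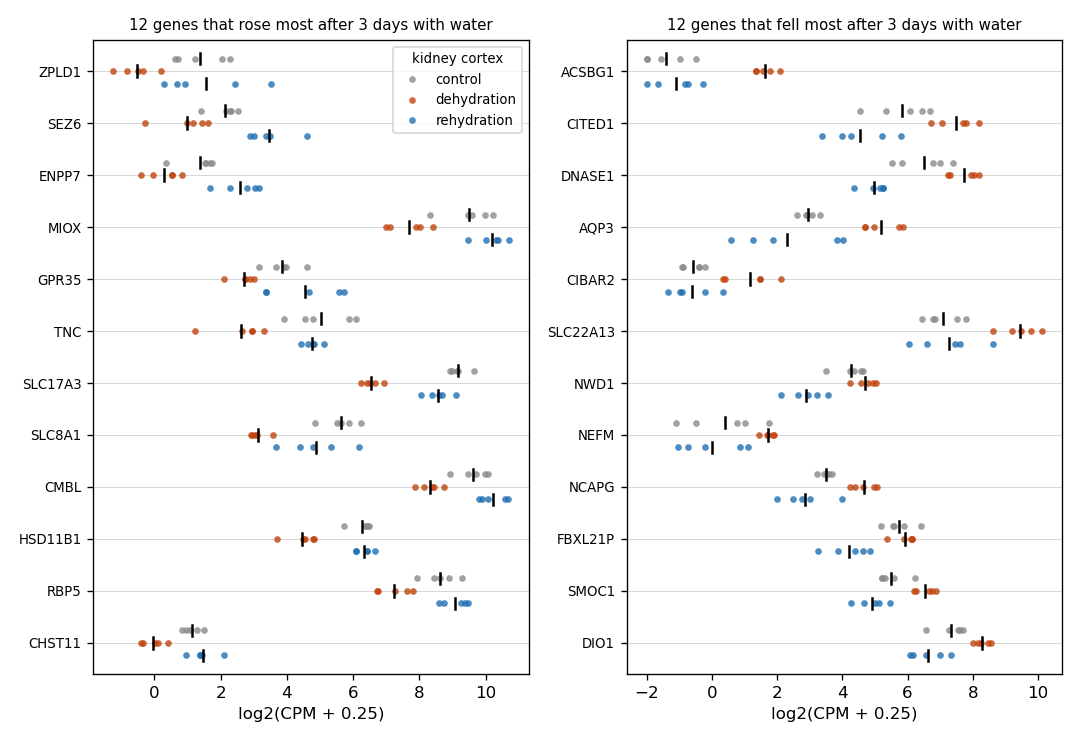
Each dot is 1 cortex library, with its level on the x axis as log2(CPM + 0.25), for the 12 named genes that rose most (left) and fell most (right). Grey dots are control, red dehydration and blue rehydration libraries, and the black bars are the means of 5. For each gene the red and blue dots do not overlap, which was part of the choice.

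The genes that fell most were ACSBG1, CITED1, DNASE1, AQP3, CIBAR2, SLC22A13, NWD1, NEFM, NCAPG, FBXL21P, SMOC1 and DIO1. ACSBG1, an acyl-CoA synthetase for long fatty acids on chromosome 27 from 21749381 to 21796517, stood at 3.20, 4.00, 2.72, 2.31 and 2.33 CPM without water. After water it stood at 0, 0.312, 0.350, 0.0703 and 0.573 CPM, and the controls held 0 to 0.464 CPM. It was thus near 0 wherever the camels had water, and the fall was 10.8-fold (log2 -3.44 ± 0.75 SE, edgeR adjusted p = 0.00872). CITED1, a transcriptional co-activator known from kidney development, stood at 134, 223, 289, 209 and 105 CPM without water and at 10.2, 55.8, 19.1, 15.5 and 36.7 CPM after it. The fall was 7.00-fold (adjusted p = 0.00482). DNASE1, a secreted enzyme that cuts DNA, went from 289, 263, 243, 158 and 150 CPM to 30.7, 20.1, 37.3, 37.5 and 35.3 CPM. The rehydrated camels were close together and all far below the lowest dehydrated one, and the fall was 6.85-fold (adjusted p = 0.000233). The controls held 45.5 to 167 CPM, all above the rehydrated camels, and rehydration against control had an edgeR adjusted p of 0.0751.

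AQP3, the water channel on the blood side of collecting duct cells, stood at 30.9, 25.8, 58.2, 25.8 and 52.8 CPM without water. It stood at 2.14, 1.25, 3.42, 16.1 and 14.0 CPM after water, and the controls at 5.82 to 9.68 CPM. Rehydration 1 to 3 lay under the control range and rehydration 4 and 5 above it, and the fall was 5.19-fold (edgeR adjusted p = 0.0169). DIO1, the deiodinase that makes active thyroid hormone, fell 3.01-fold from 313 ± 48.4 to 104 ± 39.8 CPM (SD, n = 5 each; adjusted p = 0.0117). NCAPG, a condensin subunit of dividing cells, fell 3.25-fold from 25.7 ± 6.26 CPM (SD, n = 5; adjusted p = 0.00160). SLC22A13, an apical carrier of urate and nicotinate, stood at 1116, 717, 392, 885 and 586 CPM without water and at 65.6, 196, 97.3, 176 and 388 CPM after it. The lowest dehydrated and the highest rehydrated camel were almost level, and its call was kept in 3 of the 10 fits without 1 library (adjusted p = 0.0802 without rehydration 3). CIBAR2 (9 of 10; 0.0863 without dehydration 3), NWD1 (9; 0.0535 without rehydration 2), NEFM (2; 0.110 without rehydration 2) and FBXL21P (5; 0.0733 without rehydration 2) also lost their calls in some of these fits.

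Sterol synthesis was the list with the most genes that rose, and none of its genes fell. Of 20 enzymes listed, 19 were matched and 10 rose, among them HMGCS1, IDI1, DHCR7, CYP51A1, MSMO1, SC5D, SQLE and FDPS. The median of the 19 was a log2 fold change of 0.98, and 18 of 19 were above 0, against 53.4% of all tested genes. Of all tested genes 1.07% rose. Of those with a symbol 8.37% were called, 3.77% higher and 4.6% lower. Symbols come in large part from genes that the study listed as changed, so list shares are tied to the result. DHCR7 catalyses a late step that ends in cholesterol. It stood at 16.1, 12.5, 12.6, 14.9 and 14.3 CPM without water and at 37.7, 37.4, 56.5, 32.9 and 21.9 CPM after it. All 5 rehydrated camels were above all dehydrated ones, and the rise was 2.64-fold (edgeR adjusted p = 0.000269). CYP51A1, which takes a methyl group off lanosterol, stood at 27.4, 21.7, 27.4, 23.1 and 27.8 CPM and then at 111, 43.8, 53.6, 87.0 and 32.1 CPM, a 2.57-fold rise with no overlap (adjusted p = 0.00256).

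Other enzymes of the route were more uneven between camels. HMGCS1, an early step, stood at 20.0 to 25.5 CPM without water and at 146, 47.0, 49.0, 67.2 and 20.9 CPM after it. Rehydration 1 and 4 were high and rehydration 5 was level with the dehydrated camels for HMGCS1. In 8 of the 10 enzymes that rose the highest pair of rehydrated libraries was 1 and 4, which also lay together on the first principal component, and in 5 of the 10 the lowest was rehydration 5. Of the 10 calls 5, those of IDI1, SQLE, CYP51A1 and DHCR7 among them, were kept whichever library was left out. HMGCS1 had an adjusted p of 0.123 without rehydration 1, MSMO1 0.171 and FDPS 0.121 without the same library, and SC5D 0.0755 without rehydration 4. Control means were 83.8 CPM for CYP51A1, 32.6 CPM for DHCR7 and 491 CPM for SQLE, and the rehydrated means were 65.5, 37.3 and 357 CPM. FDFT1, LSS, MVD, MVK, PMVK, NSDHL, EBP, ACAT2 and HSD17B7 did not pass the test.

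**Figure D3:**
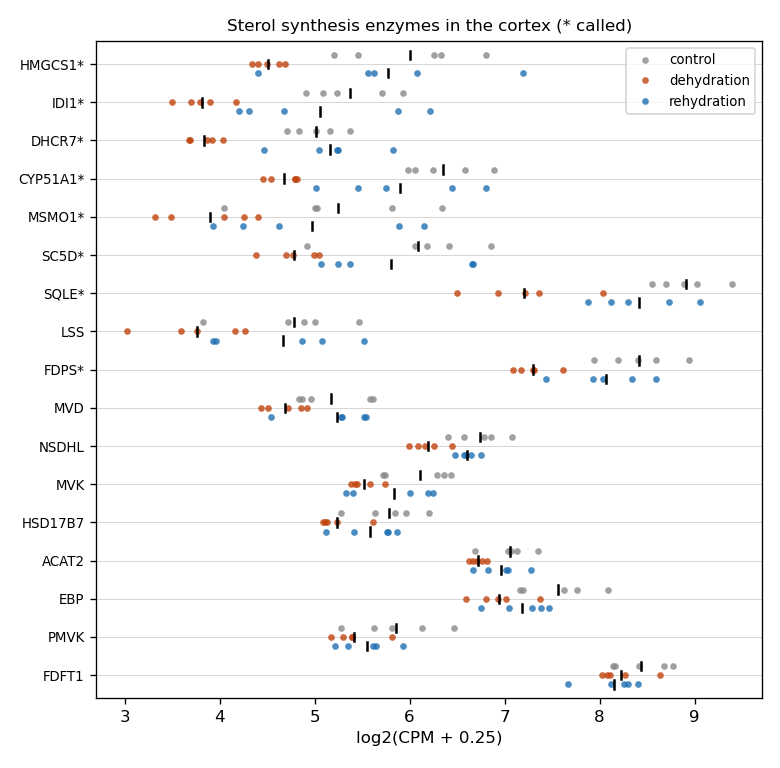
The x axis gives log2(CPM + 0.25) in each cortex library for the sterol synthesis enzymes named in the text, ordered by fold change, with control in grey, dehydration in red and rehydration in blue, and the mean of 5 as a black bar. Asterisks mark those that rose. In CYP51A1 and DHCR7 no blue dot lies among the red ones, and in HMGCS1 that of rehydration 5 (20.9 CPM) does.

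Genes that sense or move sterols gave 1 rise and 1 fall among 6 matched of 18 listed. For this list and the next, 3.77% of tested genes with a symbol rose and 4.6% fell. INSIG1 went from 11.1, 9.82, 11.6, 10.6 and 19.0 CPM to 36.5, 21.7, 23.8, 28.7 and 16.8 CPM (2.04-fold, edgeR adjusted p = 0.0420). MYLIP, which marks the LDL receptor for destruction, fell 1.44-fold from a mean of 41.6 CPM (adjusted p = 0.0444). The adjusted p was 0.113 for INSIG1 without rehydration 1 and 0.113 for MYLIP without dehydration 3. In fatty acid synthesis 3 genes rose and 1 fell among 9 matched of 15 listed. SCD, which puts the double bond into stearate, stood at 204 to 281 CPM without water and at 1008, 241, 439, 911 and 506 CPM after it. Rehydration 2 was within the dehydrated range, rehydration 1 and 4 were the highest, and the rise was 2.60-fold (adjusted p = 0.0129) towards a control mean of 1179 CPM. SREBF1, which encodes the SREBP1 factor, rose 2.41-fold (adjusted p = 0.0264, and 0.0819 without rehydration 5). THRSP, a regulator of lipid synthesis that responds to thyroid hormone, rose 3.37-fold from 4.45 ± 1.04 CPM (SD, n = 5; adjusted p = 0.0155, and 0.0507 without rehydration 1), with a control mean of 29.7 CPM. ACSBG1, described above, was the gene of this list that fell. FADS1, ELOVL6, ACACA, ACLY and ACSS2 did not pass the test.

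In the citric acid cycle list 4 of 15 matched genes (25 listed) rose and 11 did not pass the test. The median log2 fold change was 0.38, against 0.03 over all genes tested, and 10 of the 15 were higher at an unadjusted p under 0.05, against 7.41% of all genes tested. List members are matched by symbol, and symbols favour genes that the study listed as changed. Shares of all genes are thus not a like background for this list or those below. Of tested genes with a symbol 3.77% rose, against 1.07% of all tested. OGDH is a subunit of the enzyme complex that turns oxoglutarate into succinyl-CoA. It stood at 182, 181, 187, 171 and 180 CPM without water and at 215, 310, 336, 237 and 280 CPM after it, a 1.53-fold rise with no overlap (edgeR adjusted p = 0.00635). IDH2 rose 1.63-fold, DLD 1.41-fold and FH 1.30-fold, and their adjusted p rose to 0.0822 (without rehydration 2), 0.105 (without rehydration 1) and 0.107 (without dehydration 5). Of 15 matched genes of fatty acid oxidation 14 did not pass the test and ACADM rose, from 651 ± 108 to 1289 ± 451 CPM (SD, n = 5 each; adjusted p = 0.0388). ACADM breaks down medium-chain fatty acids, and its adjusted p was 0.118 without rehydration 4. In oxidative phosphorylation 1 of 38 matched genes rose, the electron carrier CYCS at 1.86-fold (adjusted p = 0.0236, and 0.0715 without rehydration 1). A second gene identifier carries the name CYCS, so reads may be split between them. The other 37 did not pass. Of the 38, 17 have symbols from protein tables of the study only, as do 6 of the 15 fatty acid oxidation genes. No gene with such a symbol was called, so those that did not pass cannot be read as unchanged. The median log2 fold change of the 38 was 0.30, and 33 were above 0, against 53.4% of all tested genes. At an unadjusted p under 0.05, 13 were higher and 0 lower, against 7.41% and 7.69% of all genes tested.

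Going through the 356 genes after their values were seen, 24 mitochondrial genes were picked, of which 21 rose and 3 fell. Of all 356 genes 165 rose and 191 fell, which is the background for this and the other groups picked in this way. The choice was made with the directions known and was not complete, since CYCS, given above, is not among the 24. The counts therefore describe the picked genes only. HIBCH, which acts in valine breakdown, went from 99.5 to 115 CPM without water to 157 to 227 CPM after it (1.74-fold, edgeR adjusted p = 0.0126). CRAT, which joins acetyl groups to carnitine, rose 1.84-fold (adjusted p = 0.0117) and PDK3, a kinase that slows pyruvate dehydrogenase, 1.96-fold (adjusted p = 0.00158). DHODH, a step of pyrimidine synthesis on the inner membrane, rose 2.08-fold from 7.82 CPM (adjusted p = 0.00902). TIMM9, TIMM17A and SAMM50, parts of the machinery that brings proteins into mitochondria, rose 1.59-fold, 1.48-fold and 1.40-fold, each with its call lost in some fits without 1 library. The 3 that fell were POLG, the polymerase of mitochondrial DNA, and COQ8A and COQ10A, of the ubiquinone pathway. POLG fell 1.49-fold from 106 ± 10.4 CPM (SD, n = 5; adjusted p = 0.00160). Of the 24 calls, 6 (OGDH, HIBCH, CRAT, PDK3, DHODH and POLG) were kept whichever library was left out.

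Of 7 redox enzymes, also picked among the 356 after their values were seen, 6 were higher and 1 was lower. NQO1, a quinone reductase, stood at 110, 120, 120, 127 and 102 CPM without water and at 270, 208, 212, 234 and 161 CPM after it. The groups were far apart against a spread of 9.86 CPM (SD) in the dehydrated camels, and the rise was 1.87-fold (edgeR adjusted p = 0.000233). GSR, which restores glutathione, rose 1.59-fold (adjusted p = 0.00902), and OSGIN1, a stress-induced growth inhibitor, rose 4.45-fold from 4.35 to 23.3 CPM to 20.1 to 86.0 CPM (adjusted p = 0.00396). SOD1, superoxide dismutase, rose 1.44-fold from 576 ± 52.6 CPM (SD, n = 5; adjusted p = 0.0308, and 0.0844 without dehydration 3). PLGRKT, a plasminogen receptor, was among the 6 named genes of smallest p that rose, from 34.8 to 43.2 CPM to 61.8 to 73.2 CPM. The flavin monooxygenases, which oxidise drugs and other small molecules, went opposite ways. FMO5, the most abundant gene that fell, went from 3743, 3473, 3944, 3424 and 3112 CPM to 974, 1258, 840, 1613 and 2406 CPM (2.50-fold lower, adjusted p = 0.0328, and 0.0927 without rehydration 3). FMO1 rose from 0.279 CPM to 4.66 CPM (adjusted p = 0.00562), with rehydration 1 at 12.7 CPM and rehydration 3 at 0.

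Genes of tubule transport moved both ways. In the proximal tubule list MIOX, SLC17A3 and SLC13A3 rose among 13 matched of 37 listed, with a median log2 fold change of 0.86, and none fell. Of all tested genes 1.07% rose, and of those with a symbol 3.77%. Of the 13, 5 have symbols from protein tables only, and no gene with such a symbol was called. SLC17A3, a urate and phosphate carrier, stood at 85.5, 101, 75.8, 121 and 90.0 CPM without water and at 549, 409, 265, 389 and 331 CPM after it (4.11-fold, edgeR adjusted p = 0.0264). SLC13A3, a carrier of citric acid cycle intermediates, stood at 377 to 738 CPM and then at 1137 to 1907 CPM (2.99-fold, adjusted p = 0.0335, and 0.0997 without dehydration 2). The 4 matched of 10 proximal tubule markers were GATM, MIOX, SLC13A3 and SLC22A8. Their summed level was 846 to 1566 CPM in the dehydrated and 3419 to 5227 CPM in the rehydrated camels. This sum includes the called genes MIOX and SLC13A3, so it is not separate from their calls. GATM and SLC22A8 were not called, with log2 differences of 1.83 and 1.18 (adjusted p = 0.118 and 0.341). The part of cell numbers in these rises was not tested. AQP1, the proximal water channel, had a log2 difference of 0.09 (adjusted p = 0.923).

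In the thick limb and distal tubule list, SLC8A1 rose and PVALB fell among 12 matched of 27 listed, 7 of the 12 with symbols from protein tables only. Of tested genes with a symbol 3.77% rose and 4.6% fell. SLC8A1, the sodium-calcium exchanger of the distal tubule, stood at 7.33, 8.27, 11.7, 7.88 and 7.49 CPM without water and at 40.3, 12.4, 27.5, 71.9 and 20.9 CPM after it (4.04-fold, edgeR adjusted p = 0.0188, and 0.0648 without rehydration 4). PVALB, a calcium-binding protein of the distal convoluted tubule, went from 3.18 to 5.82 CPM to 0.703 to 3.24 CPM (adjusted p = 0.0266, and 0.0758 without dehydration 2). UMOD, the thick limb's secreted protein, was at 4545 to 7460 CPM and 2626 to 4950 CPM (adjusted p = 0.0747). CLDN10, another thick limb marker, went the other way, from 288 to 524 CPM to 497 to 681 CPM (adjusted p = 0.0501). The third matched marker, EGF, had a log2 difference of -0.08 (adjusted p = 0.945). CALB1, another calcium-binding protein of the distal tubule, was at 490 to 851 CPM and 617 to 2426 CPM (adjusted p = 0.296).

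In the collecting duct list AQP3 and KCNJ8 fell and no gene rose among 14 matched of 29 listed, 3 of the 14 with symbols from protein tables only. Of tested genes with a symbol 4.6% fell. KCNJ8 is a subunit of potassium channels closed by ATP, found also in small vessels, and fell 2.08-fold from 11.1 ± 3.53 CPM (SD, n = 5; edgeR adjusted p = 0.00488). AQP2, the vasopressin-regulated channel of the same duct, stood at 237, 261, 255, 243 and 159 CPM without water and at 112, 99.7, 174, 157 and 128 CPM after it (adjusted p = 0.0572). SGK1, a kinase induced by aldosterone, had a log2 difference of 1.03 (adjusted p = 0.0572). The summed level of AQP2, AQP3 and SCNN1A, the 3 matched of 5 collecting duct markers, was 515 to 661 CPM in the dehydrated and 436 to 743 CPM in the rehydrated camels. This sum joins genes that went opposite ways. AQP2 and AQP3 had log2 differences of -0.79 and -2.38, and SCNN1A of 0.43 (adjusted p = 0.325 for SCNN1A). The 5 matched of 13 osmolyte and tonicity genes did not pass the test, 3 of them with symbols from protein tables only.

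Among all 356 genes, chosen after their values were seen, 22 encode membrane carriers or channels, of which 12 rose and 10 fell. SLC47A2, an apical exporter of organic cations, rose 3.42-fold (edgeR adjusted p = 0.0210, and 0.0642 without dehydration 3). RHBG, an ammonia channel of the collecting duct, rose 3.98-fold, but rehydration 2 held 315 CPM against 23.9 to 62.7 CPM in the other 4, and the adjusted p was 0.271 without it. SLC1A1, an apical glutamate carrier, fell 2.93-fold from 153 ± 29.1 CPM (SD, n = 5; adjusted p = 0.0408, and 0.106 without rehydration 3). SLC29A1, a nucleoside carrier, fell 2.13-fold (adjusted p = 0.0249, and 0.0758 without dehydration 2). LRRC8A, the core subunit of the channel that releases chloride from swollen cells, fell 1.51-fold from a mean of 125 CPM (adjusted p = 0.0117).

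A set of 13 genes of chromatin and transcription was picked from the 356 after their values were seen. All of those picked were lower, with log2 fold changes of -0.94 to -0.34, and the choice of members set this shared direction. Other called regulators of transcription rose, among them SREBF1, described above, and THAP5, from 29.1 to 40.1 CPM to 42.0 to 58.2 CPM (edgeR adjusted p = 0.0263). BAZ1B, a subunit of nucleosome remodelling complexes, stood at 343, 261, 277, 338 and 224 CPM without water and at 121, 156, 119, 177 and 179 CPM after it. The groups did not overlap, and the fall was 1.92-fold (edgeR adjusted p = 0.00122) to the level of the controls, which held 142 to 168 CPM. CHD1L, another remodeller, fell 1.73-fold from 108 to 134 CPM to 57.5 to 87.2 CPM (adjusted p = 0.00111). CDK9 and SUPT5H, which act on paused RNA polymerase, fell 1.36-fold and 1.38-fold (adjusted p = 0.00865 and 0.00345). The members KAT8, KANSL3, PHF1, MED21, EHMT2, MORC2 and BAP1 lost their calls in some fits without 1 library, and BAZ1B, CHD1L, BRD8, PCGF2, CDK9 and SUPT5H did not. Of 7 genes of RNA processing picked in the same way 6 fell, among them the splicing genes SRSF4 (1.59-fold, adjusted p = 0.0146) and DDX23 (1.45-fold, adjusted p = 0.00605). POP5, of ribonuclease P, rose. Of 10 genes of vesicle traffic, picked likewise, 9 fell, with the tethering subunits COG1 and VPS52 at 1.37-fold and 1.44-fold (adjusted p = 0.0130 and 0.00784).

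**Figure D4:**
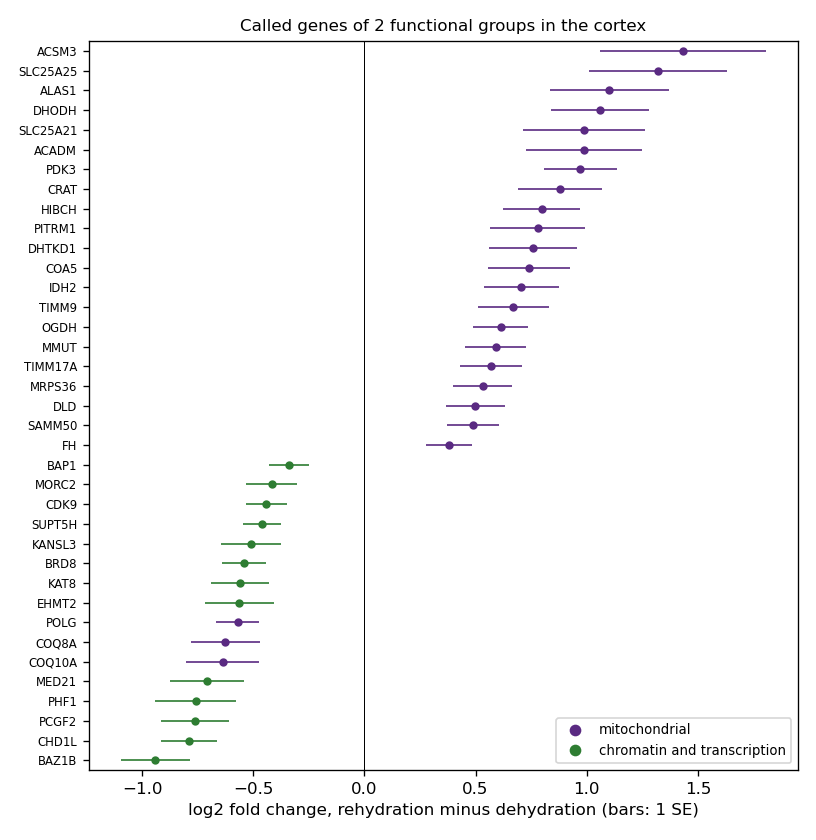
The x axis gives the fitted log2 fold change with 1 SE for 24 mitochondrial genes (purple) and 13 chromatin and transcription genes (green), both picked among the 356 after their values were seen. All purple points but POLG, COQ8A and COQ10A lie right of 0, and all green points lie left of it, which the choice of members set.

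Other genes that fell with small errors were SMOC1, NT5DC2, CALCOCO1 and KLHDC3. CALCOCO1, an autophagy receptor, stood at 145, 143, 150, 139 and 144 CPM without water and at 77.9, 100, 76.1, 81.6 and 106 CPM after it (1.63-fold, edgeR adjusted p = 0.000838). NT5DC2 went from 34.8 to 43.4 CPM to 20.6 to 25.5 CPM (1.73-fold, adjusted p = 0.000838). KLHDC3, which picks targets for a ubiquitin ligase, fell 1.70-fold (adjusted p = 0.00122). Among the most abundant genes that fell, FAM149A and PLEKHA6 fell 1.55-fold and 1.70-fold from 494 and 440 CPM. CTDSPL (0.0733 without dehydration 4) and GOLGB1 (0.132 without dehydration 3) did not keep their adjusted p under 0.05. KIAA1191, among the abundant genes that rose, did so with rehydration 2 at 1657 CPM and the other 4 at 379 to 777 CPM, and its adjusted p was 0.117 without that library.

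Genes of hormone handling were picked after their values were seen. THRA, a thyroid hormone receptor, stood at 153, 192, 228, 150 and 162 CPM without water and at 86.4, 102, 113, 106 and 135 CPM after it (1.63-fold lower, edgeR adjusted p = 0.00872). DIO1 fell and THRSP rose, as given above. PPARG, a lipid-sensing receptor, fell 2.02-fold from 5.41 CPM (adjusted p = 0.0330, and 0.100 without dehydration 2). NUPR1, a stress-induced regulator, fell 2.25-fold from 394 ± 68.1 CPM (SD, n = 5; adjusted p = 0.00729).

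Of the 4 matched genes of the endothelial list (11 listed) 1 fell and 3 did not pass the test. Of tested genes with a symbol 4.6% fell, and 2 of the 4 have symbols from protein tables only. The gene that fell, PECAM1, the adhesion molecule of endothelial cells, stood at 297, 302, 336, 286 and 328 CPM without water and at 148, 206, 179, 203 and 166 CPM after it. The groups did not overlap, the controls held 168 to 194 CPM, and the fall was 1.72-fold (edgeR adjusted p = 0.00345). ENG, CDH5 and VWF had log2 differences of -0.61, -0.37 and -0.09 (adjusted p = 0.0741, 0.405 and 0.905). FLI1, an endothelial and blood cell factor, and ADCY4 were picked after their values were seen and fell 1.74-fold and 1.84-fold (adjusted p = 0.0155 and 0.00472). The summed level of PECAM1, CDH5 and VWF, the 3 matched of 4 endothelial markers, was 356 to 423 CPM in the dehydrated and 215 to 276 CPM in the rehydrated camels. PECAM1 makes up most of this sum, so the sum is not separate from its call. The 4 fibroblast and smooth muscle markers summed to 264 to 603 CPM and 195 to 306 CPM, and none was called. Their log2 differences went both ways, with ACTA2, the most abundant, at -0.90 and COL3A1 at 0.93 (adjusted p = 0.0760 and 0.197). COL1A1 was at 0.10 and PDGFRB at -0.11. C1QA, the matched leukocyte marker of 4, was at 76.9 to 306 CPM and 42.5 to 188 CPM (adjusted p = 0.783). FABP4, of fat, held at most 6.39 CPM and HBB, of red blood cells, at most 5.26 CPM in these 10 libraries. SYNPO was the matched glomerular marker of 5, at 0.685 to 7.74 CPM, so the glomerular share cannot be read from these lists.

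For the remaining lists the absence of calls cannot be read as a result. Of the 2345 tested genes whose symbol comes only from the protein tables of the study, 0 (0%) were called, since a gene that the study listed as changed takes its symbol from that list. Such genes made up all 38 matched genes of the cytosolic ribosome, 20 of 22 of the proteasome, 16 of 17 chaperones and 21 of 22 translation factors and tRNA ligases. The median log2 fold changes of these lists were -0.17, -0.01, -0.04 and -0.13. In all, 15 lists with 148 matched genes held no call, and 127 (85.8%) of the 148 were such genes. They cover glycolysis and gluconeogenesis, osmolytes, protein folding in the endoplasmic reticulum, tubule injury, immediate early genes, renin and vasoactive signals, leukocytes, fibroblasts and smooth muscle, fat, blood and the glomerulus, beside those given above. Of the 148, 0 were called by edgeR and by limma-voom, and 7 by DESeq2 (4.73%, against 3.65% of the 19578 genes DESeq2 was run on). Those 19578 include genes removed by the low-count filter, which all 148 passed, so the shares are not alike. An unadjusted p under 0.05 was reached by 19 (12.8%), against 15.1% of all genes tested. In the extracellular matrix list ITGB4 rose (edgeR adjusted p = 0.0309, and 0.106 without rehydration 3). P4HA1, which hydroxylates collagen, fell 1.79-fold (adjusted p = 0.00160), among 17 matched of 51, 10 of the 17 with symbols from protein tables only. MCM7, a replication helicase, fell 1.55-fold (adjusted p = 0.0263, and 0.0667 without dehydration 4) among 2 matched cell cycle genes.

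Set beside the control cortex, the genes that rose had a median log2 difference of -0.83 for dehydration minus control and 0.20 for rehydration minus control. The genes that fell had medians of 0.50 and -0.21. Dehydration minus control shares its dehydration libraries with the comparison that chose these genes, and rehydration minus control shares its rehydration libraries, so the medians are descriptions. Some genes stood away from both. Chosen after their values were seen, FBXL21P was at a mean of 54.7 CPM in control, 61.5 in dehydration and 19.4 in rehydration, NWD1 at 19.6, 26.4 and 7.62 CPM, and FABP3, a fatty acid carrier, at 149, 126 and 262 CPM. Their edgeR adjusted p for rehydration against control was 0.166, 0.220 and 0.233, so a difference from control was not shown. The call of FABP3 against dehydration was lost in 4 of the 10 fits without 1 library (adjusted p = 0.0708 without rehydration 3).

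In the medulla, 565 genes (3.67%) differed between rehydration and dehydration, and 61 genes were called in both tissues in the same direction, which is 17.1% of the cortex calls and 10.8% of the medulla calls. The 165 cortex risers had a median log2 fold change of 0.53 in the medulla, and the 191 that fell had -0.23. ACSBG1 fell by 3.02 on the log2 scale in the medulla and CITED1 by 2.19, and DHCR7 rose by 1.90. The difference between the tissues passed the test for 3 genes (0.0195% of those tested), and 1445 genes (9.4%) passed an unadjusted p under 0.05. That fit takes no account of the animal. With the animal code as a replicate block over both tissues, in a fit without the control libraries, 0 genes passed. The adjusted p of each of the 3 genes was then 0.442 (edgeR), and 1278 genes had an unadjusted p under 0.05. The 3 calls thus rest on the fit of all 30 libraries without the block. SMOC1, a matricellular calcium-binding protein on chromosome 6 from 68140166 to 68281735, stood at 76.1, 99.7, 118, 72.3 and 107 CPM in the dehydrated cortex. It stood at 18.8, 24.9, 34.6, 31.5 and 43.7 CPM in the rehydrated cortex, a 3.08-fold fall with no overlap (edgeR adjusted p = 0.000233). In the medulla it stood at 101 to 174 CPM and 117 to 178 CPM, and the difference between the tissues was -1.83 ± 0.31 (log2, SE, adjusted p = 0.0323). RTN4, a protein that shapes the endoplasmic reticulum, went from 235 to 335 CPM to 361 to 489 CPM in the cortex and from 332 to 429 CPM to 185 to 271 CPM in the medulla (difference 1.20 ± 0.21, adjusted p = 0.0323). LRRCC1, a centrosome protein, also rose in the cortex (1.41-fold) and fell in the medulla, with a difference of 1.01 ± 0.19 (adjusted p = 0.0420). The 3 calls were not kept in each of the 10 fits without 1 cortex library, where 0 to 6 genes passed. No gene passed without dehydration 2, 3 or 5 or without rehydration 1 or 4, 1 passed without dehydration 1 or 4, 3 without rehydration 2, 6 without rehydration 3 and 5 without rehydration 5. Without dehydration 5 the edgeR adjusted p of the difference was 0.0994 for both SMOC1 and RTN4 and 0.111 for LRRCC1. The cortex call of SMOC1 itself was kept in all 10 such fits, that of RTN4 in 4 (adjusted p = 0.0786 without dehydration 5) and that of LRRCC1 in 1 (0.100 without dehydration 4).

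**Figure D5:**
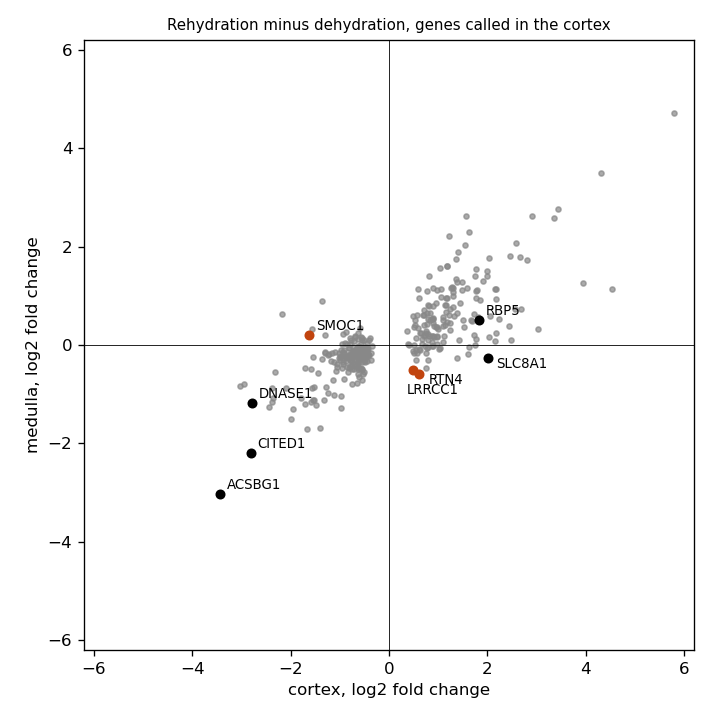
Each point is 1 of the 356 genes called in the cortex, with its log2 fold change of rehydration minus dehydration in the cortex on the x axis and in the medulla on the y axis. The red points are the 3 genes whose difference between the tissues passed the test, and the named black points are examples. SMOC1 lies near 0 and RTN4 and LRRCC1 below 0 on the y axis.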

How the data were processed

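Poly(A) RNA of cortex and medulla from 15 camels (30 libraries) was sequenced by the authors, who trimmed the reads, aligned them to CamDro2 and counted read pairs per gene of Ensembl release 100 on the reverse strand with featureCounts 1.6.2. The deposited values are these raw whole-number counts per gene, one table for all libraries, with gene length as its other numeric column, and 0 columns belonged to other samples. The aligner differs between the sources used here. The labels name DESeq2 1.31.18 as the submitters' tool.

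Libraries were grouped by the treatment and tissue given in the labels. All 30 libraries in 6 groups were fitted with edgeR 4.0.16 (R 4.3.3): filterByExpr (minimum count 10, minimum total count 15), TMM scaling and the quasi-likelihood test, with Benjamini-Hochberg adjustment over 15376 genes and a threshold of 0.05. Levels are CPM, the counts relative to the TMM-scaled library total. Adjusted p-values without a named tool are from this test. Each replicate is 1 animal. Cortex and medulla libraries were paired by the animal codes in the labels for the block over both tissues, which was fitted on the dehydration and rehydration libraries only. Over the 10 dehydrated and rehydrated animals, the deviations of the 2 libraries of an animal from their group means correlated at -0.42 to 0.41, and 4 of 10 cortex libraries correlated best with their own medulla library. Symbols came from tables of the study and from RefSeq by gene number, 3794 identifiers in all, 3764 of them tested, and are weighted towards genes the study listed as changed. Tested on simulated data with 15229 genes, the fit of the cortex comparison recovered 32% of 100 genes changed 2-fold and 74% of 100 changed 4-fold. It made 7 false calls. Many changes of 2-fold would thus be missed at this depth and spread. All other genes were left unchanged in the simulation, and changes under 2-fold were not simulated.

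Named genes were the members of the gene lists; the 12 that rose and 12 that fell most among called, named genes whose groups do not overlap and whose mean reached 1 CPM; the 6 most abundant and the 6 of smallest p in each direction; those with at most 3 counts in all libraries of a group; and the 2 of smallest p for the difference between tissues. Other names were chosen after their values were seen. The members and lists were chosen with earlier results of these data known. The alternatives were DESeq2 1.42.0, limma-voom (limma 3.58.1), DESeq2's size factors, other filters, subsets of libraries, a replicate block, covariates, a stricter threshold and leaving out each library in turn. No sequences are given, since no sequence of these genes was used here. Some results are not reported here.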

Additional observations from a re-analysis of the deposited data

Results flagged for a closer look

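Of 142 groups of 5 values examined, 4 held a library far from the other 4, where chance alone sets apart about 1 group in 20. SEZ6 stood at 23.9 CPM in rehydration 2 and at 7.10 to 10.9 CPM in the other rehydration libraries. SLC8A1 stood at 11.7 CPM in dehydration 3 and at 7.33 to 8.27 CPM in the others. INSIG1 stood at 19.0 CPM in dehydration 5, above the 9.82 to 11.6 CPM of the others. MYLIP stood at 31.9 CPM in dehydration 1, below the 43.0 to 45.2 CPM of the others.

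The change from dehydration to rehydration differed between cortex and medulla for 3 genes by a test of the difference itself (edgeR's quasi-likelihood test). The log2 difference, cortex minus medulla, was -1.83 for SMOC1, 1.20 for RTN4 and 1.01 for LRRCC1. With the animal as a block over both tissues 0 genes passed and the edgeR adjusted p of each of the 3 was 0.442. LRRCC1 also lost its call with limma-voom (adjusted p = 0.0602), with DESeq2's size factors (edgeR, 0.0501) and without a filter on low counts (edgeR, 0.0930).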

How the results depend on the processing

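The count of 356 genes became 715 with DESeq2, which called 349 of the 356, and 208 when only the 10 libraries compared were fitted, which called 150 (42.1%) of the 356. It was 84 at an adjusted p under 0.01, where a smaller count follows from the stricter threshold. It lay between 264 and 355 with limma-voom, DESeq2's size factors, other filters, the 15 cortex libraries alone and covariates for RNA integrity or for a letter N in the library names, which 3 of 5 rehydration and 1 of 5 dehydration libraries carry and whose meaning is not given. Of the 356 genes 187 (52.5%) were shared with the letter N covariate, which was fitted on the 15 cortex libraries alone. The same 15 libraries without the covariate shared 203 (57.0%). Limma-voom shared 242 (68.0%) and the fit without a filter 290 (81.5%). These settings were chosen after seeing the data: the legacy dispersion method of edgeR gave 330, and leaving out cortex control 3, which lay at 108 on the first principal component, gave 455 and kept all 356. Limma-voom called 97 higher among its 267. Leaving out 1 library gave 147 to 423 genes. For the difference between tissues the 3 genes became 71 with DESeq2, 0 at an adjusted p under 0.01, and 0 to 6 without 1 library. The medulla gene share, rehydration minus dehydration, was -0.0593 percentage points and ranged from -0.0750 to -0.0329 without 1 library, with exact permutation p = 0.0238 without dehydration 4 and p = 0.0476 without rehydration 4. Of 3552 recomputed values of single genes 2526 kept direction and side of the threshold, 1024 kept direction but lost the call, 2 gained it and 0 reversed. The cause of these changes was not tested.

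With the replicate number as a replicate block, in a fit of the 10 libraries compared only, 51 genes were called, 36 of them among the 356. The same 10 libraries without the block gave 208 genes. With the animal code as a replicate block over both tissues, in a fit without the control libraries, 0 genes differed between tissues (edgeR, adjusted p of the 3 genes 0.442). Same-numbered dehydration and rehydration libraries of the cortex are different animals and share only a number: their deviations correlated at -0.30 to 0.25, and 1 of 5 correlated best with its own number.

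Depth (13458448 to 19785428 read pairs) limits the values of genes near 0.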
